A study of Mus musculus with 18 samples.

Results

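The 10 skeletal muscle genes described here are Acta1, Myh4, Myh1, Myh2, Ckm, Tnnt3, Tnnc2, Actn3, Pvalb and Atp2a1, taken as every probe set whose platform annotation gives 1 of these symbols, as a sign of how much skin muscle a sample held. They are 10 of 18193 genes named on the array by a single symbol, and are read by 14 probe sets. RNA was measured on 18 Affymetrix mouse arrays in 6 groups of 3: epidermis, dermis and whole skin, each from K14NICDER transgenic and from wild-type mice. All mice, controls included, were females of a C57Bl6xCBA F1 background that were 7 weeks old when dosing with 4OHT (4-hydroxytamoxifen) began and received it for 14 days. The transgene places a Notch intracellular domain, fused to a hormone-binding domain that 4OHT activates, under the keratin 14 promoter, which drives it in basal keratinocytes and not in muscle fibres. The labels do not say which arrays came from 1 animal or whether samples were pooled, so p-values measure only the spread between these samples, which may be technical.

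Mouse skin carries a thin sheet of striated muscle, the panniculus carnosus, below the fat of the dermis, and body wall or limb muscle lies under it. Its fibres are largely of the fast kind. A fast fibre contracts when troponin binds calcium and myosin motors pull on actin filaments. A calcium pump clears the calcium, and creatine kinase and glycolysis supply the ATP. The epidermis has no muscle, and the smooth muscle of hair erectors and vessels uses other actin, myosin and filament proteins. In bulk samples such as these, fewer muscle cells and less muscle RNA per cell cannot be told apart.

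The labelled layers were checked against marker lists, each summarised as the mean log2 signal of its tested genes on an array. The list of 9 dermal fibroblast genes lay between 10.49 and 10.90 in the 6 dermis arrays, 10.12 and 10.44 in whole skin, and 6.71 and 8.69 in epidermis. The list of 7 differentiated keratinocyte genes lay between 11.5 and 12.1 in epidermis and between 8.76 and 10.6 in dermis. The list of 5 basal keratinocyte genes separated the layers less, at 11.33 ± 0.14 (SD, n = 3) in wild-type epidermis against 10.93 ± 0.10 in wild-type dermis, and at 10.15 ± 0.22 in transgenic epidermis against 10.39 ± 0.08 in transgenic dermis, where the dermis was the higher. The fibroblast and differentiated keratinocyte lists thus differed in the direction of the labels and the basal list did so in wild type only. Keratinocyte genes thus gave signal in dermis and fibroblast genes in epidermis. Whether this was RNA carried over from the other layer was not tested. The transgenic dermis array 3 stood apart from its group in more than muscle, with the adipocyte list at 5.61 against 7.68 and 7.19 and the endothelial list at 5.0 against 6.88 and 6.01.

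The promoters of 3 of the muscle genes are shown because these genes changed level together from array to array, and because Myh4 and Myh2, which lie near each other in the myosin cluster, parted on some arrays. Each is the 250 bases upstream of the gene's start in RefSeq's table for GRCm38.p6, with Acta1 at chr8:123894776-123895025 on the minus strand, Myh4 at chr11:67237562-67237811 and Myh2 at chr11:67170777-67171026, both on the plus strand. Capitals mark CAGCTG, an E-box of the kind that myogenic factors bind, and the TATA motif TATAAA on either strand.
Acta1: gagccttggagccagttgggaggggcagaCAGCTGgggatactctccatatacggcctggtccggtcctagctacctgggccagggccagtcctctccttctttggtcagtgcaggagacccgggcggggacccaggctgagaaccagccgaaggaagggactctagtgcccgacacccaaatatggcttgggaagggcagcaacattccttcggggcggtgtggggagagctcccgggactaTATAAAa
Myh4: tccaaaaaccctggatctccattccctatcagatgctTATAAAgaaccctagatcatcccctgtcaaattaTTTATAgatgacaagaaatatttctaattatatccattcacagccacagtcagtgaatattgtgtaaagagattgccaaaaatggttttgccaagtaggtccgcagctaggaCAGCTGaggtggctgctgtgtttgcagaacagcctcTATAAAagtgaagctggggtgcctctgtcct
Myh2: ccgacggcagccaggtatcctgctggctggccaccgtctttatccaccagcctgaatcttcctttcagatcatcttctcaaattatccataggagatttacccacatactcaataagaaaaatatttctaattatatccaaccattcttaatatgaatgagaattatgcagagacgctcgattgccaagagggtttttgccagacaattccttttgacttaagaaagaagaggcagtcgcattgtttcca
RefSeq's table held 8 of the 10 genes, all but Tnnt3 and Actn3. The E-box, which reads the same on both strands, was in 4 of the 8 windows (Acta1, Myh4, Ckm and Atp2a1) and in 13% of all 32851 windows of this length. The TATA motif, searched on both strands, was in 3 of the 8 (Acta1, Myh4 and Myh1) and in 12.4% of all windows. A CArG box, the element bound by serum response factor, was in Acta1 and Myh4 and in 1.47% of all windows. None of these matches overlapped another in the 3 windows printed, and the Myh2 window held none of the 3 motifs. These are matches of letters and not measured binding.

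The level of the muscle genes differed more between arrays of the same group than between groups. The mean log2 signal of the 10 genes in wild-type dermis was 10.04, 5.04 and 5.75 on arrays 1 to 3, and in transgenic dermis it was 8.85, 10.33 and 4.35. In wild-type whole skin it was 8.68, 4.84 and 9.88, and in transgenic whole skin 7.56, 7.78 and 8.97. In wild-type epidermis it was 6.14, 9.16 and 7.83, and in transgenic epidermis 5.99, 6.48 and 9.14. The highest and the lowest array of all 18 were both transgenic dermis, array 2 and array 3, and lay 5.98 log2 units apart, a 63.1-fold ratio on the linear scale. The narrowest group was transgenic whole skin, whose 3 arrays lay within 1.41.

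**Figure D1:**
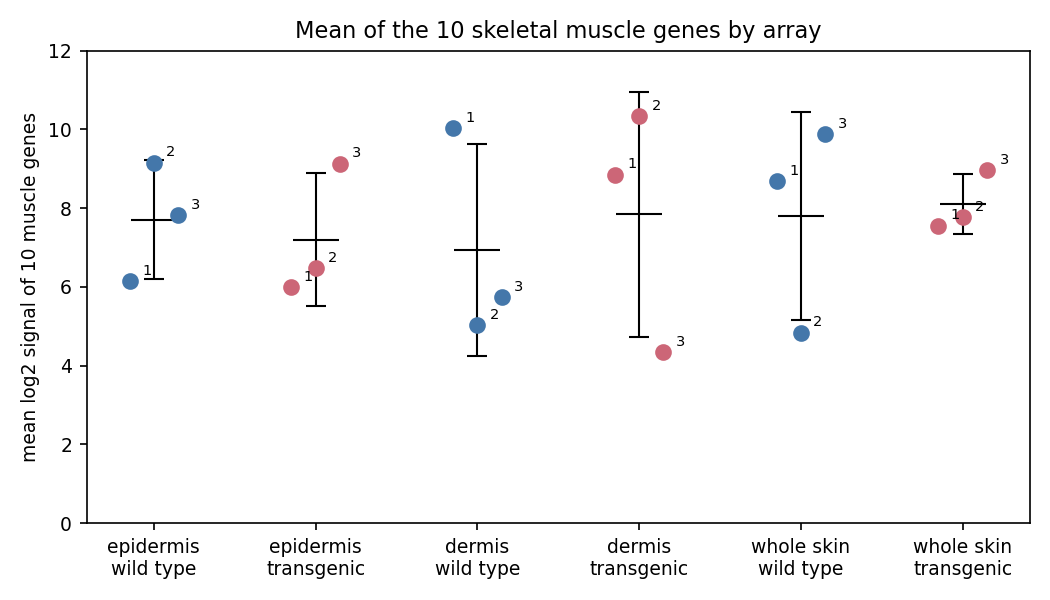
Mean log2 signal of the 10 skeletal muscle genes on each array (points, numbered by replicate; blue wild type, red transgenic), with the mean ± SD of the 3 arrays of each group in black. Arrays of 1 group lie between 1.41 and 5.98 apart, and every group overlaps every other.

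Ordered by group mean, transgenic whole skin stood at 8.10 ± 0.76 (SD, n = 3), transgenic dermis at 7.85 ± 3.11, wild-type whole skin at 7.80 ± 2.64, wild-type epidermis at 7.71 ± 1.51, transgenic epidermis at 7.20 ± 1.69 and wild-type dermis at 6.94 ± 2.70. Neighbours in this order lay between 0.04 and 0.51 apart, less than the SD of either group, so none of them differed beyond its spread. Epidermis, the layer without muscle, held these genes at levels within the range of the dermis.

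Acta1, which encodes the actin of skeletal muscle thin filaments, had the widest range. In dermis its log2 signal was 10.50, 3.73 and 4.78 on the wild-type arrays and 8.72, 10.16 and 1.38 on the transgenic arrays. In whole skin it was 8.68, 4.79 and 10.44 in wild type and 7.27, 8.65 and 8.99 in transgenic mice. Both genotypes held arrays with much and arrays with little Acta1, and the groups overlapped. In epidermis Acta1 was 3.78, 9.25 and 7.24 in wild type and 5.47, 4.49 and 9.20 in transgenic mice, again with overlap. From the lowest to the highest array it spanned 9.12 log2 units, a 557-fold ratio, which rests on a low end where array signals are least precise.

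**Figure D2:**
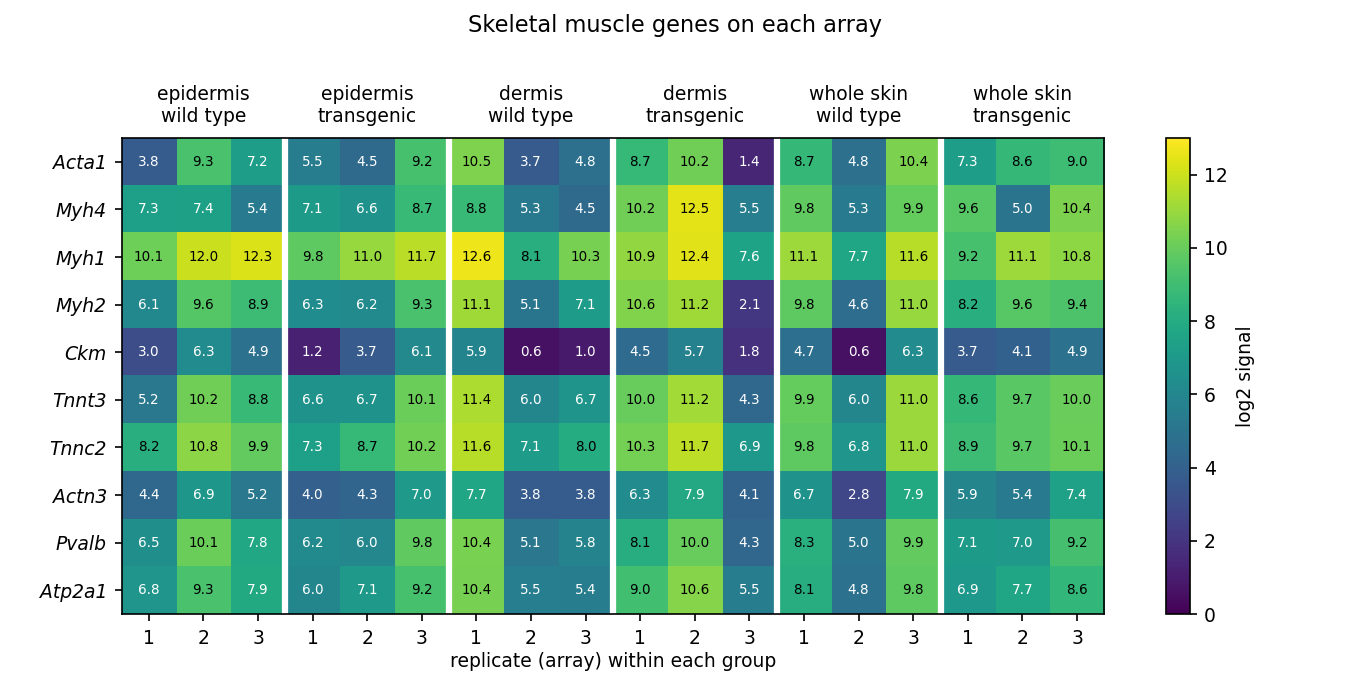
Log2 signal of the probe set used for each of the 10 muscle genes (rows) on each of the 18 arrays (columns, 3 per group), with the value printed in each cell. By the mean over rows, wild-type dermis arrays 2 and 3, transgenic dermis array 3 and wild-type whole skin array 2 are lowest. Transgenic epidermis arrays 1 and 2 and wild-type epidermis array 1 are next. Levels are to be compared along a row, not between rows.

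Among the motor proteins, Myh2, the myosin heavy chain of fast oxidative fibres, followed Acta1. It was 11.13, 5.05 and 7.12 in wild-type dermis, 10.55, 11.16 and 2.09 in transgenic dermis, 9.77, 4.63 and 11.005 in wild-type whole skin and 8.17, 9.60 and 9.36 in transgenic whole skin. In epidermis Myh2 was 6.08, 9.55 and 8.89 in wild type and 6.33, 6.24 and 9.29 in transgenic mice. The same arrays were low as for Acta1, and its span was 9.07.

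Myh1, the myosin of intermediate fast fibres, was read by 3 probe sets. The one with the highest mean was 12.65, 8.15 and 10.34 in wild-type dermis, 10.91, 12.43 and 7.56 in transgenic dermis, 11.12, 7.72 and 11.59 in wild-type whole skin and 9.24, 11.09 and 10.77 in transgenic whole skin. In epidermis it was 10.13, 11.95 and 12.31 in wild type and 9.77, 11.01 and 11.66 in transgenic mice, levels that overlapped those of dermis. Over the 18 arrays this probe set and the second correlated at Pearson's r = 0.985, while the third, which lay between 0.12 and 7.20, correlated with them at 0.643 and 0.671. Myosin heavy chain genes are close in sequence, and the name of the Myh1 probe set used (ending in x_at) marks that some of its probes match other transcripts too, so its level is uncertain where other family members are expressed.

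Myh4, the myosin of the fastest glycolytic fibres, was 8.77, 5.27 and 4.50 in wild-type dermis and 10.18, 12.47 and 5.54 in transgenic dermis. It was 9.83, 5.31 and 9.92 in wild-type whole skin, 9.65, 5.0 and 10.43 in transgenic whole skin, 7.32, 7.38 and 5.40 in wild-type epidermis and 7.08, 6.64 and 8.74 in transgenic epidermis. Its transgenic whole skin array 2, at 5.0, was as low as wild-type array 2 at 5.31, although Acta1 and Myh2 were high there. The second Myh4 probe set read 6.74, 2.89 and 8.09 in transgenic whole skin and 7.03, 8.80 and 2.34 in transgenic dermis, and correlated with the first at r = 0.893 over 18 arrays.

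The genes of calcium control and support gave the same picture. Tnnc2, the calcium-binding troponin of fast fibres, was 11.59, 7.13 and 8.02 in wild-type dermis, 10.28, 11.68 and 6.93 in transgenic dermis, 9.76, 6.79 and 11.05 in wild-type whole skin and 8.92, 9.67 and 10.08 in transgenic whole skin. Tnnt3, the troponin that anchors the complex in fast fibres, ranged over the 18 arrays from 4.33 to 11.41. Actn3, the actinin of fast-fibre Z-discs, ranged from 2.78 to 7.89. Their lowest and highest arrays belonged to transgenic dermis, wild-type dermis or wild-type whole skin, the 3 widest groups.

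Pvalb, a calcium buffer of fast fibres, ranged from 4.29 to 10.40, and Atp2a1, the calcium pump of their sarcoplasmic reticulum, from 4.83 to 10.64. Ckm, the muscle creatine kinase, was 5.86, 0.58 and 0.95 in wild-type dermis, 4.53, 5.72 and 1.84 in transgenic dermis and 4.73, 0.58 and 6.29 in wild-type whole skin. The 3 Ckm values under 1 fell on arrays that were low for the other genes as well. Its second probe set correlated with the first at r = 0.739.

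The genes shared the order of the arrays more fully in some groups than in others. The 3 arrays stood in the order of the mean for 10 of the 10 genes in transgenic dermis and in wild-type whole skin, 8 in wild-type dermis, 8 in wild-type epidermis, 6 in transgenic epidermis and 5 in transgenic whole skin, the narrowest group. Wild-type dermis array 1 was the highest of its group for 10 of the 10 genes, transgenic dermis array 3 the lowest for 10, wild-type whole skin array 2 the lowest for 10, transgenic epidermis array 3 the highest for 10 and wild-type epidermis array 2 the highest for 9. Over the 18 arrays the 45 pairs of genes correlated at a median r of 0.897, from 0.463 for Myh4 with Myh1 to 0.990 for Acta1 with Tnnt3. These correlations are descriptions over arrays that share tissue and genotype, with no test. Without Myh4 the lowest of the 36 pairs was 0.746.

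Myh4 was the gene that departed most, which was seen in the values and then described. Its level minus the mean of the other 9 genes was 1.48, 2.37 and 1.32 in transgenic dermis but -1.41, 0.26 and -1.38 in wild-type dermis. In transgenic whole skin it was 2.32, -3.09 and 1.62, so this balance turned its sign between arrays of 1 group. In wild-type whole skin it was 1.27, 0.52 and 0.03. In epidermis it was 1.31, -1.98 and -2.70 in wild type and 1.21, 0.17 and -0.44 in transgenic mice, and Myh4 and Myh1 correlated at r = -0.188 over those 6 arrays. On transgenic whole skin array 2, 3 of the 10 genes, Myh4, Pvalb and Actn3, were the lowest of their group, and 2 were the highest.

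**Figure D3:**
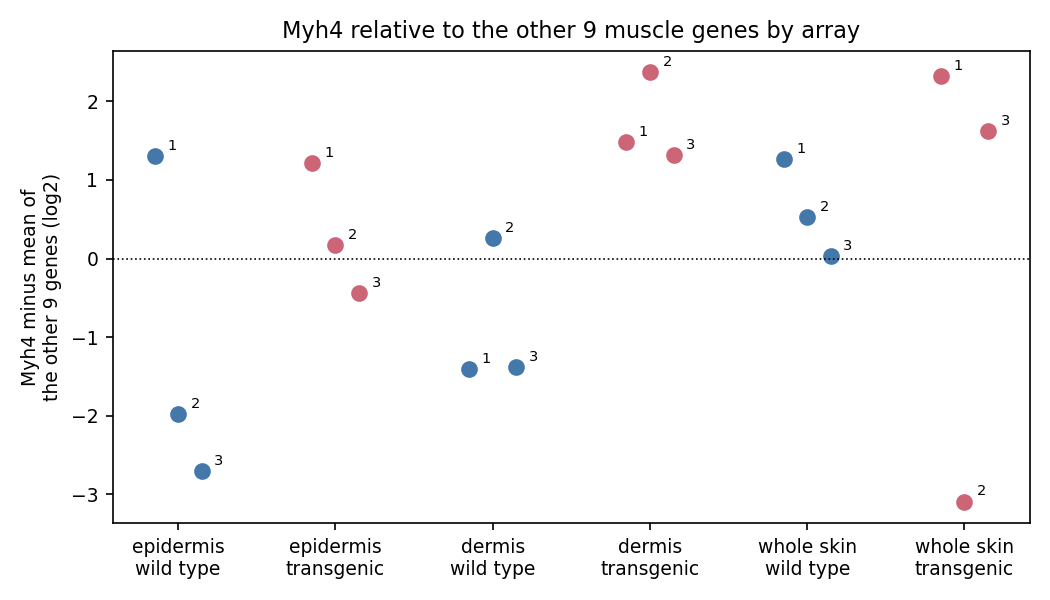
Log2 signal of Myh4 minus the mean of the other 9 muscle genes on each array (points, numbered by replicate; blue wild type, red transgenic), with a dotted line at 0. Transgenic dermis lies between 1.32 and 2.37, and transgenic whole skin array 2 lies lowest of all 18 at -3.09.

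The spread of these genes within a group was large beside that of other genes. In wild-type whole skin their median SD over 3 arrays was 2.65, against 0.177 over all 13739 genes tested, a 15-fold ratio. The median SD was 2.84 against 0.329 in wild-type dermis, 2.78 against 0.540 in transgenic dermis, 1.45 against 0.471 in wild-type epidermis, 1.70 against 0.356 in transgenic epidermis and 0.870 against 0.182 in transgenic whole skin. In every group each of the 10 genes lay at or above percentile 90.1 of all genes by SD. The 68 tested genes of the 10 and of the other muscle lists made up 0.495% of genes tested, and 27 of the 50 genes with the largest SD in wild-type whole skin, 21 of 50 in wild-type dermis and 14 of 50 in transgenic dermis. In transgenic whole skin 1 of the 50 was such a gene, and in the epidermis groups 3 of wild type and 4 of transgenic.

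The effect of the transgene on these genes was compared with limma in each tissue, over the 6 arrays of that tissue, with p-values adjusted by Benjamini-Hochberg over all 13739 genes, and a gene was called at an adjusted p under 0.05. All 10 genes passed the filter on low signal, and none was called in any of the tissues, nor was any at an unadjusted p under 0.05 in these 3 fits. Over all genes tested, 2.38% were called in epidermis, 0.0655% in the dermis and 2.79% in whole skin. Wild-type and transgenic arrays overlapped for each of the 10 genes in each tissue, while 23%, 9.24% and 24.3% of all genes did not overlap in the same order of tissues.

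In whole skin Acta1 differed by 0.33 ± 1.19 (SE) on the log2 scale between transgenic and wild type, with a 95% confidence interval from -2.37 to 3.04, and Myh4 by 0.01 ± 1.55, from -3.52 to 3.53. The 10 differences lay between 0.01 and 0.58 with a median of 0.35, against -0.01 over all genes. Without wild-type array 2 the median was -1.22 and without wild-type array 3 it was 1.39. The intervals therefore allow changes of several fold in both directions.

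In dermis Acta1 differed by 0.42 ± 2.29, from -4.74 to 5.58. Myh4 had the largest difference of the 10, at 3.22 ± 1.62 with an interval from -0.43 to 6.87, and missed the threshold (limma, unadjusted p = 0.0775, adjusted p = 0.987). Its transgenic array 3, at 5.54, lay below wild-type array 1. The 10 differences lay between -0.08 and 3.22 with a median of 0.59, against -0.05 over all genes, and the median was 2.61 without transgenic array 3 and -0.60 without transgenic array 2. Transgenic array 3 was also the one low in adipocyte and endothelial genes, and their part in the result was not tested.

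In epidermis Acta1 differed by -0.37 ± 1.35, from -3.34 to 2.60, and Myh4 by 0.79 ± 0.61. The 10 differences lay between -1.05 and 0.79 with a median of -0.61, against -0.10 over all genes, and the median ran from -1.59 to 0.15 as each array was left out in turn.

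**Figure D4:**
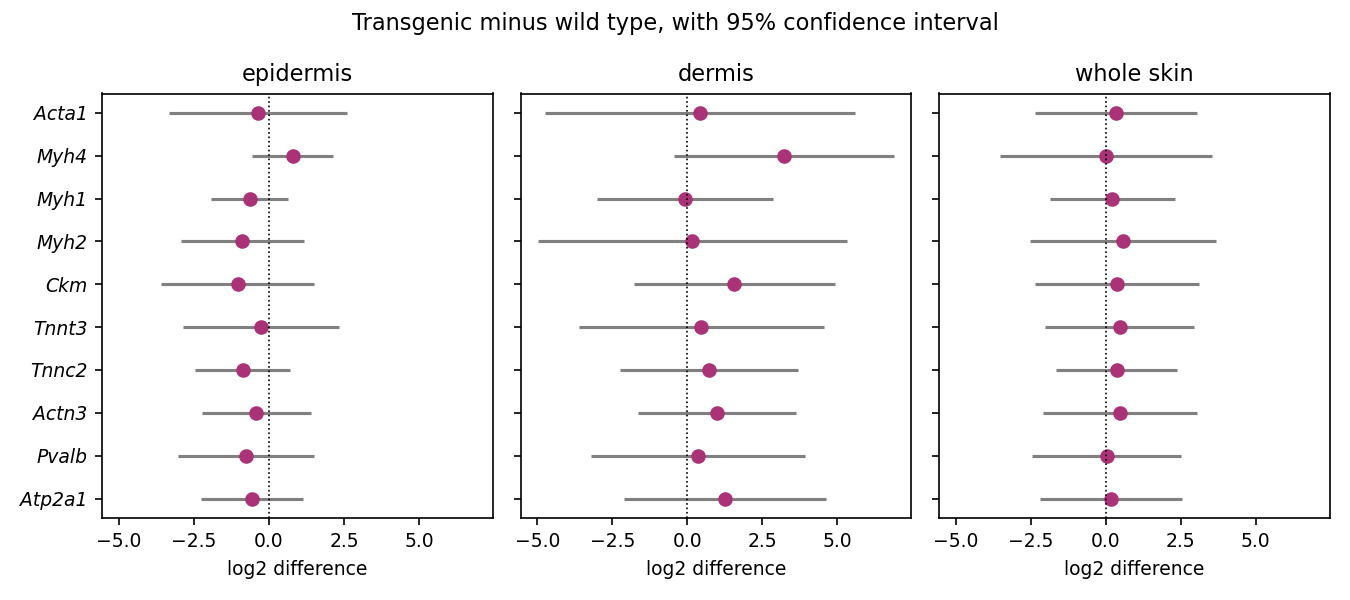
Transgenic minus wild-type difference in log2 signal (points) with its 95% confidence interval (lines) for each of the 10 muscle genes in the 3 tissues, from limma on 3 against 3 arrays. Every interval includes 0, and the widest are in dermis.

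The difference of the genotype effects between tissues was tested on the 12 arrays of each pair. Between dermis and epidermis the 10 genes' differences lay between 0.57 and 2.62 with a median of 1.27, and none was called, against 0.0218% of all genes. Between whole skin and dermis they lay between -3.21 and 0.41, and limma called 0% of all genes, with 3.12% at an unadjusted p under 0.05. No difference between tissues in the genotype effect was thus measured beyond the spread, at the precision that 3 arrays a group give.

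The wild-type tissues were compared to ask whether muscle RNA followed the layer. In wild-type dermis against epidermis none of the 10 genes was called, where 18.6% of all genes were. Acta1 differed by -0.42 ± 2.19 and Myh4 by -0.52 ± 1.41, and the median of the 10 was -0.61 against 0.05 over all genes. In whole skin against dermis none was called, against 0.204% of all genes. Acta1 differed by 1.63 ± 2.20 and Myh4 by 2.17 ± 1.89, with a median of 0.69. The groups overlapped for all 10 genes in both comparisons, while 40% and 39.4% of all genes did not.

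Smooth muscle genes differed between the wild-type layers. Of 11 such genes, 9 were higher in wild-type dermis than epidermis, among them Acta2, the smooth muscle actin, by 4.88 ± 0.42 (limma, adjusted p = 3.08e-05) and Myh11, the smooth muscle myosin, by 3.81 ± 0.45 (adjusted p = 0.000159). The mean of the list lay between 4.36 and 5.15 in the 6 epidermis arrays, 8.03 and 8.65 in wild-type dermis and 7.05 and 7.79 in transgenic dermis. On the 3 wild-type whole skin arrays it was 8.0, 8.04 and 7.92, where the skeletal muscle genes were 8.68, 4.84 and 9.88. The smooth muscle mean was 7.46, 7.41 and 7.73 on the transgenic whole skin arrays. All 11 differences between transgenic and wild type were negative in dermis and in whole skin. By limma, 4 and 6 of them had an unadjusted p under 0.05, where 4.33% and 17.8% of all genes did. None was called in dermis, and in epidermis the differences ran from -2.47 to 2.58. In transgenic whole skin Actg2, an enteric and vascular smooth muscle actin, was lower by 0.78 ± 0.14 (adjusted p = 0.0240) and Npnt, which encodes nephronectin, a matrix protein where the hair erector attaches, by 0.70 ± 0.13 (adjusted p = 0.0318). Neither call was kept when all 18 arrays shared 1 estimate of the spread, with the replicate number as a block, or when wild-type array 1 or 2 or transgenic array 1 or 2 was left out, and that of Npnt was also lost without wild-type array 3. In transgenic epidermis Acta2 was higher by 2.58 ± 0.45 (adjusted p = 0.0178) and Npnt lower by 2.47 ± 0.42 (adjusted p = 0.0163). Both of these calls were lost without wild-type array 3 or transgenic array 1, that of Acta2 also without transgenic array 2 or with the mean of its probe sets, and that of Npnt also with the replicate number as a block. Npnt, a matrix gene in the list, was not among the 9 called higher in wild-type dermis. Which cells gave its signal was not tested.

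Other genes of skeletal muscle were taken from 7 lists of 77 genes, of which 58 were tested. Between genotypes limma called none of the 58 in any of the 3 tissues. At an unadjusted p under 0.05, 7 were lower and 0 higher in transgenic epidermis, 1 was higher and 0 lower in dermis, and 1 was higher and 2 lower in whole skin, where 17.6%, 4.33% and 17.8% of all genes were past that p in the same order of tissues. Their median differences were -0.56, 0.42 and -0.27.

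The mean of the 20 other sarcomere genes tested moved with that of the 10. It was 7.31, 4.25 and 8.72 in wild-type whole skin and 7.47, 8.65 and 4.07 in transgenic dermis. Within the list the 3 smallest p-values in whole skin were those of Mylk2, a skeletal myosin light chain kinase, at 0.81 ± 0.30, Tmod4, a cap of thin filaments, at -0.95 ± 0.41, and Des, the muscle intermediate filament desmin, at -0.74 ± 0.32, with adjusted p-values of 0.211, 0.278 and 0.278. Differences of both signs thus stood side by side and none passed.

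So did the mean of the 11 energy genes, at 6.47, 4.22 and 8.21 in wild-type whole skin. Mb, the oxygen-storing myoglobin, was 7.06, 4.99 and 9.27 there and 5.51, 6.80 and 6.67 in transgenic whole skin, a difference of -0.78 ± 0.89 (adjusted p = 0.705). The 10 genes of excitation and calcium handling had means of 5.59, 3.66 and 6.80 in wild-type whole skin. Ryr1, the calcium release channel of skeletal muscle, was 7.22, 4.02 and 8.84 on those arrays.

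The means of the 7 slow-fibre genes tested lay between 2.92 and 5.25 over all 18 arrays, a narrower range, but its genes differed among themselves. Myoz2, a Z-disc protein of slow fibres, varied with the 10 genes, at 3.94, 1.45 and 6.32 in wild-type whole skin and 5.58, 5.55 and 0.60 in transgenic dermis. Myh7, the slow myosin, was 4.89, 3.05 and 1.04 in wild-type whole skin, and Tnnt1, the slow troponin, 4.33, 3.98 and 4.66. The 4 tested genes of the neuromuscular junction had means between 2.65 and 4.36. The 4 tested myogenic regulators and satellite cell genes had means between 3.48 and 5.38, with Mef2c alone between 5.09 and 8.59, while Pax7, Myf5 and Myog did not pass the filter on low signal.

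**Figure D5:**
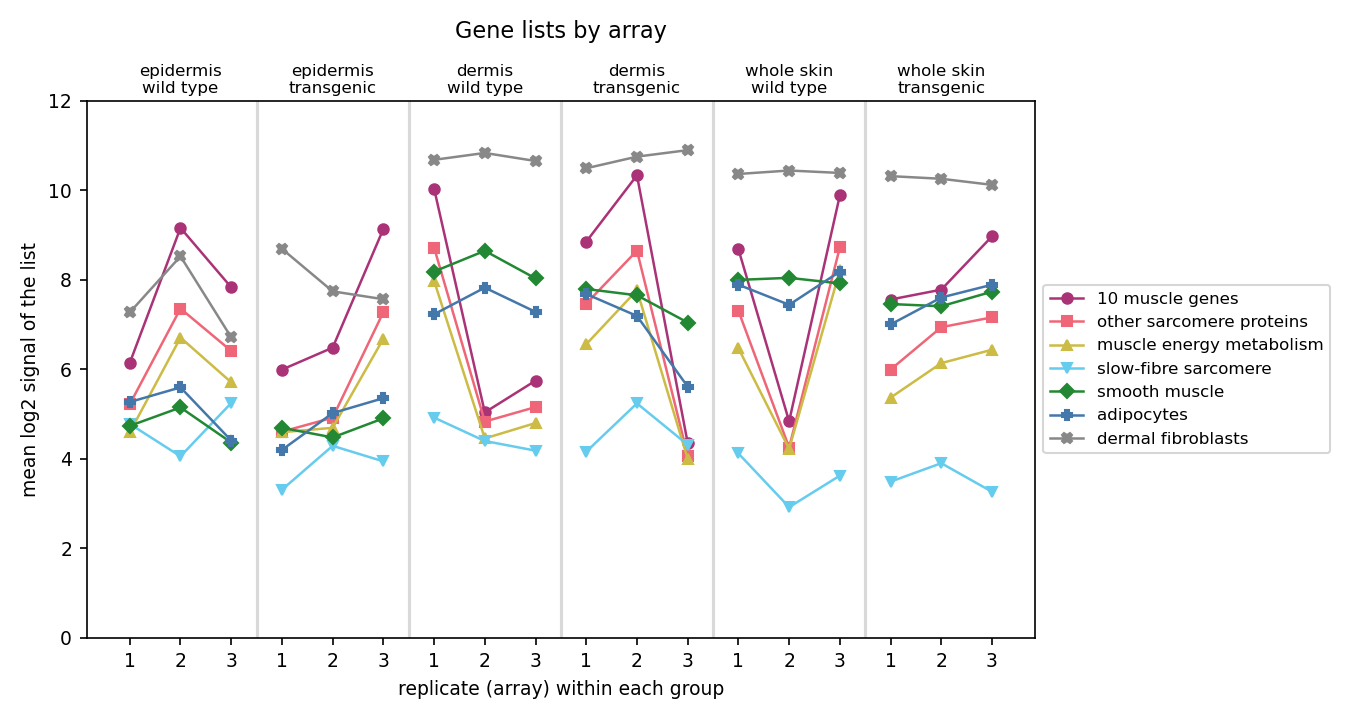
Mean log2 signal of 7 gene lists on each of the 18 arrays, with lines joining the 3 arrays of a group only to guide the eye. The 10 muscle genes, other sarcomere proteins and muscle energy metabolism dip on the same arrays, while smooth muscle and dermal fibroblasts differ mainly between epidermis and the other tissues.

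In wild-type dermis against epidermis 2 of these 58 genes were called, where 18.6% of all genes were. Mef2c, a transcription factor of muscle and of vessels, was higher in dermis by 2.04 ± 0.43 (adjusted p = 0.00534). Trim72, a membrane repair protein of striated muscle, was lower by 1.44 ± 0.40 (adjusted p = 0.0248), and its call was lost without dermis array 2 or 3 or epidermis array 1 or 3. Over the 18 arrays Trim72 correlated with the mean of the 10 genes, each scaled to the same mean and SD, at r = -0.211 and Mef2c at 0.311. Within wild-type whole skin Mef2c was 7.78, 7.16 and 8.38, in the same order of arrays as the 10 genes.

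Ranked by that correlation over 18 arrays, the 10 genes most like the muscle genes were Tnni2 at 0.986, Smpx at 0.984, Ttn at 0.983, Pgam2 at 0.982, Mylpf at 0.973, Myot at 0.971, Hrc at 0.970, Pygm at 0.963, Myom2 at 0.962 and Trdn at 0.960. Tnni2 encodes the inhibitory troponin of fast fibres, Ttn the giant spring protein titin, Pgam2 and Pygm enzymes of muscle glycolysis and glycogen use, and Trdn triadin of the calcium release complex. Mylpf encodes the regulatory light chain of fast myosin, Myot the Z-disc protein myotilin, Myom2 the M-band protein myomesin of fast fibres, Hrc a calcium-binding protein of the sarcoplasmic reticulum and Smpx a small protein of striated muscle. Tnni2 was 10.92, 5.39 and 6.39 in wild-type dermis and 9.30, 10.62 and 5.79 in transgenic dermis. Of 13729 other genes, 51 correlated above 0.8, and 26 of these were in the muscle lists and 25 in no list.

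By list, r was above 0.8 for 14 of 20 sarcomere genes, 9 of 11 energy genes and 3 of 10 genes of excitation and calcium handling. It was above 0.8 for 0 of 7 slow-fibre genes, the highest being Myoz2 at 0.799, and for 0 of 11 smooth muscle genes, 0 of 9 adipocyte genes, 0 of 9 fibroblast genes and 0 of 4 heart genes. The slow-fibre and heart genes gave low signals, where array values are least precise. Whether this lowered their r was not tested. The median r was 0.906 for sarcomere genes, -0.10 for slow-fibre genes, 0.04 for smooth muscle genes and 0.193 for adipocyte genes. The adipocyte list was 7.89, 7.44 and 8.18 in wild-type whole skin and 7.00, 7.60 and 7.89 in transgenic whole skin, a range of 0.741 and 0.888 on arrays where the muscle genes ranged over 5.05 and 1.41. These r values also take in differences between tissues, which were large for adipocyte genes. Within both whole skin groups and transgenic epidermis the adipocyte list stood in the array order of the muscle genes. In wild-type epidermis and both dermis groups it did not.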

How the data were processed

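The authors deposited log2 signal values for 45037 probe sets on 18 Affymetrix arrays, used here as deposited. Per the submitters' processing notes MAS5 made the values (version not given in the sources used here). That the scale is log2 was read from the values, which run from -7.52 to 14.42. The trimmed mean of the unlogged signal, leaving out 2% at each end, lay between 98.9 and 99.5 on every array, so each array was scaled to a common total and a level is relative to it. Such signals are least precise at the low end, where 2.81% to 9.36% of an array's values were below 0.

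Platform annotation gave 1 symbol for 34945 probe sets, several for 932 and none for 9160. Of several probe sets for a gene the brightest on average was used, and 13739 genes with a mean above the 30th percentile of probe sets (3.15) were tested with limma 3.58.1 in R 4.3.3, with a mean per group and an intensity trend, on the arrays of the tissues compared only, with Benjamini-Hochberg adjustment. The fit was tested on simulated data in which each gene varied on its own. The muscle genes here varied together, so that test does not cover their shared variation. The array number, 3 a group, limits the precision.

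The 10 genes, the lists and the tests were chosen with earlier results of these data known. Named are the 10 genes, up to 3 genes of each other list with the smallest p in whole skin and the 10 genes most alike over 18 arrays; any other gene was named after its values were seen. The alternatives were another set of arrays, scaling, filter or probe-set rule, 16 added to the signal, the replicate number as a block, and leaving out each array.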

Additional observations from a re-analysis of the deposited data

How the results depend on the processing

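None of the 10 muscle genes was called in any comparison under any of the 27 settings tried, whose lowest limma adjusted p was 0.0839, and 21 of 1283 differences had an unadjusted p under 0.05. Signs were not stable, and 145 of the 1283 turned. With quantile normalization Myh4 in whole skin was -0.0078. As each array was left out, the transgenic minus wild-type difference of Acta1 ran from -1.86 to 0.88 in epidermis, -1.29 to 3.10 in dermis and -1.25 to 1.57 in whole skin, that of Myh4 in whole skin from -1.51 to 1.69, and wild-type dermis minus epidermis from -2.50 to 0.88 for Acta1 and -1.82 to 0.32 for Myh4. The span of the mean of the 10 genes was 4.90 with 16 added to the signal and 5.50 to 5.98 without 1 array.

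The number of all genes called moved with the setting. It was 327 in epidermis (114 to 1044, and 58 to 1385 without 1 array), 9 in dermis (6 to 38, and 2 to 46), 384 in whole skin (37 to 493, and 95 to 410), 2559 for wild-type dermis against epidermis (2405 to 4947, and 1341 to 3146), 28 for wild-type whole skin against dermis (0 to 282, and 0 to 2286), and 3 (0 to 42, and 0 to 54) and 0 (0 to 0, and 0 to 51) for the differences between tissues.

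Whether a shared replicate number marks samples of 1 animal could not be decided. With so few arrays a group, the own number can be best by chance. Deviations of same-numbered arrays correlated between -0.345 and 0.131 across genotypes in 9 pairs, and an array correlated best with its own number in 1 of them. Across tissues they correlated between -0.07 and 0.404 in 12 pairs, best with the own number in 5. For dermis with whole skin these were numbers 1 and 2, at 0.242 and 0.320 in wild type and 0.148 and 0.159 in transgenic mice. For epidermis with dermis it was number 1 of the transgenic mice alone, at 0.404. In the rest of the 12 pairs another number correlated better. With the replicate block 0 muscle genes and 114, 7, 251, 2830, 0, 1 and 0 of all genes were called in the 7 comparisons, in the order above.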

Other observations

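Inner root sheath genes of the hair follicle, which mark a growing follicle, also varied between arrays of whole skin. The mean log2 signal of 5 such genes was 1.70, 4.73 and 2.22 in wild-type whole skin and 7.72, 6.58 and 2.72 in transgenic whole skin, so that transgenic array 3 lay within the wild-type range. Wild-type array 2, the highest of its group for these genes, was the lowest for the 10 muscle genes. Of the 5 genes, 1 was called in whole skin and 1 in epidermis, where 2.79% and 2.38% of all genes were. It was Krt73 in both, higher in transgenic whole skin (limma, adjusted p = 0.00410) and in transgenic epidermis (adjusted p = 0.0206). In dermis the same list was 1.32, 1.78 and 2.08 in wild type and 8.87, 8.57 and 7.82 in transgenic mice, without overlap, and Krt25, Krt27, Krt71 and Tchh were called higher (limma, adjusted p from 2.28e-05 to 0.00633). Krt25, a keratin of the inner root sheath, was 10.26, 10.38 and 9.66 in transgenic dermis and 1.62, 1.34 and 1.98 in wild-type dermis, where it lay under the level of the filter on low signal, so no fold is given. The muscle genes on those same dermis arrays overlapped between genotypes, and over 18 arrays the 5 genes correlated with them at r between -0.20 and 0.03. That r pools tissues and genotypes between which the hair genes differed. In transgenic whole skin the hair list fell from array 1 to 3 while the muscle mean rose, at 7.56, 7.78 and 8.97. In transgenic dermis array 3 was the lowest for both.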
